A study of Mus musculus with 7 samples.

Results

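Osteoprotegerin, RANK ligand and RANK were followed through 7 bulk RNA-seq libraries of sorted mouse skin cells. The members are the 3 rows of the deposited normalized counts table named Tnfrsf11b (osteoprotegerin), Tnfsf11 (RANK ligand, RANKL) and Tnfrsf11a (RANK), out of 25322 genes listed. They were chosen with earlier results of these libraries known, among them the Zfp750_KO and control levels of Tnfrsf11b, so their levels and differences between the groups are given as a description, with no test.

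The Zfp750_KO group held 4 libraries from mice labelled ZNF750 fl/fl, of which 1 is given as Rosa26 -/- and the others as Rosa26 +/-. The control group held 3 libraries, 2 from mice labelled ZNF750 wt/fl and 1 from a mouse labelled ZNF750 wt/wt, all Rosa26 +/-. All mice of both groups carried 1 copy of an inducible Cre recombinase driven by Lrig1 (Lrig1-CreERT2 or Lrig1-CreER +/-), a gene of stem cells in the hair follicle junctional zone. All received 4-hydroxytamoxifen as pups, from day 4 to 7 or from day 5 to 8, and skin cells expressing tdTomato, the red reporter, were sorted on day 36. Zfp750, the mouse counterpart of human ZNF750, encodes a transcription factor of epidermal differentiation. The libraries are called by the short names of the table's columns: Zfp750_KO 1M, 2M, 3F and 6F and control 4F, 4M and 7F. The labels do not explain the letters M and F, do not tie a column to a single mouse, and do not say whether mice were pooled, so p-values below measure the spread between these libraries.

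RANKL is a membrane-bound or shed cytokine of the tumour necrosis factor family. It binds RANK, a receptor on myeloid cells that signals through TRAF adaptors to NF-kB and NFATc1 and is required for osteoclast formation. Osteoprotegerin is a secreted receptor without a membrane anchor that captures RANKL, and also TRAIL, and so acts as a decoy. In skin, keratinocytes and T cells can make RANKL, Langerhans cells and macrophages carry RANK, and mesenchymal cells are a usual source of osteoprotegerin.

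The depth was estimated at 9.09 to 17.1 M reads per library, the column total divided by the value of 1 read. That value was taken as the commonest non-zero normalized value or a small fraction of it. Zfp750 itself had normalized counts of 10.1 to 48.9 in Zfp750_KO and 51.2 to 335 in control. The libraries differed widely in leukocyte RNA within both groups. Ptprc, the leukocyte antigen CD45, was at 538, 517, 13422 and 10251 normalized counts in the Zfp750_KO libraries 1M, 2M, 3F and 6F, against 58.8, 5652 and 7853 in the controls 4F, 4M and 7F. Zfp750_KO 3F and 6F and control 4M and 7F were therefore rich in leukocyte RNA, whereas Zfp750_KO 1M and 2M and control 4F were poor in it. The 14 fibroblast markers summed to 20491 to 124039 per M of the library total in Zfp750_KO and to 96797 to 198663 per M in control. Most of each sum was the collagens Col1a1, Col1a2 and Col3a1, so it is not read as a level of fibroblasts. Pdgfra, Dpt, Lum and Crabp1 of the same list were instead highest in Zfp750_KO 1M and 2M. Pdgfra was at 914, 845, 335 and 323 per M in the Zfp750_KO libraries 1M, 2M, 3F and 6F. It was at 404, 439 and 476 per M in the controls 4F, 4M and 7F. The 15 keratinocyte markers summed to 407 to 3287 per M in Zfp750_KO and 406 to 3566 per M in control. In such bulk samples fewer cells of a type and less RNA per cell cannot be told apart.

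The 250 bases before the start of Tnfsf11 and of Tnfrsf11a are shown, the members with an entry in the promoter sequences used here. They are RefSeq sequences of GRCm38.p6, at chr14:78308044-78308293 on the minus strand for Tnfsf11 and at chr1:105780473-105780722 on the plus strand for Tnfrsf11a. Capitals mark matches, on either strand, to TATAA or GGGCGG, the letters of a TATA box and of a GC box.
Tnfsf11: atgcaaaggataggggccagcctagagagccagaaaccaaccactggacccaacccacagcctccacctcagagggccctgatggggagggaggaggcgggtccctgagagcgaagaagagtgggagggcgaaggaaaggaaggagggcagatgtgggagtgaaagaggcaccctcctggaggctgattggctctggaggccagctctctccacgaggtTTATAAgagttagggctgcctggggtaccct
Tnfrsf11a: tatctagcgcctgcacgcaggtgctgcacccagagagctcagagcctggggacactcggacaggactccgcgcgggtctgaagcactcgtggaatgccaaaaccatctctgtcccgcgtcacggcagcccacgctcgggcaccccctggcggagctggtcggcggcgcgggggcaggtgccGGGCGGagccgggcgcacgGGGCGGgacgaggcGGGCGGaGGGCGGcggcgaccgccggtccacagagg
The Tnfsf11 window held TATAA on both strands at the same place, as the overlapping run TTATAA, and no GGGCGG. The Tnfrsf11a window held 4 matches to GGGCGG and none to TATAA. Of 32851 RefSeq windows of the same length, 22.8% held TATAA and 32.7% held GGGCGG. The GC content was 60.4% in the Tnfsf11 window and 73.6% in the Tnfrsf11a window, with 4 and 31 CpG dinucleotides, against medians of 52.4% and 6 over all windows. The AP-1 motif TGANTCA, found in 6.75% of windows, was in neither. These letters describe the windows and do not show that a factor binds there. No sequence is printed for Tnfrsf11b, which had no entry among those sequences.

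Tnfrsf11b, the decoy receptor (ENSMUSG00000063727), lies on the minus strand of chromosome 15 from 54114015 to 54141881, as deposited. The table names no genome build, and its positions differ from those of GRCm38.p6 used for the sequences above. Tnfrsf11b had normalized counts of 1363, 1291, 172 and 161 in the Zfp750_KO libraries 1M, 2M, 3F and 6F, against 110, 93.2 and 88.9 in the controls 4F, 4M and 7F. All 4 Zfp750_KO libraries lay above all 3 controls, and Zfp750_KO 1M and 2M stood far above 3F and 6F. Means were 747 ± 671 in Zfp750_KO (SD, n = 4) and 97.3 ± 11.1 (SD, n = 3) in control, a ratio of means of 7.67. On the scale of log2(normalized count + 11.9) the difference was 2.17 ± 0.83 (SE). These values came from 71 reads in control 4M and from 79 or more in each other library.

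The controls were close to each other although their leukocyte RNA was not. Control 4F, with the least Ptprc of all libraries, and control 4M and 7F, with far more, differed in Tnfrsf11b by no more than 110 against 88.9. Within Zfp750_KO the libraries poor in leukocyte RNA held the high values. Set beside the control that was also poor in leukocyte RNA, Zfp750_KO 1M and 2M were at 12.4 and 11.7 times control 4F. Set beside the controls rich in leukocyte RNA, Zfp750_KO 3F was at 1.85 times control 4M and 1.94 times 7F, and 6F at 1.73 and 1.81 times. The Zfp750_KO values were thus the higher ones among the leukocyte-poor and among the leukocyte-rich libraries, with a fold that was not the same. The poor side rests on control 4F alone, and on both sides Ptprc was also higher in Zfp750_KO than in control. The same splits hold for the letters in part only, since both Zfp750_KO libraries with an M were poor in leukocyte RNA and both with an F were rich. Among libraries with an M, Tnfrsf11b was at 1363 and 1291 in Zfp750_KO and 93.2 in control, and among those with an F at 172 and 161 in Zfp750_KO and at 110 and 88.9 in control. Leukocyte level and letter cannot be told apart within Zfp750_KO.

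Relative to Col1a1, a collagen of fibroblasts, Tnfrsf11b stood at 0.254%, 0.230%, 0.292% and 0.0661% of the Col1a1 normalized count in the Zfp750_KO libraries 1M, 2M, 3F and 6F, against 0.0103%, 0.0107% and 0.0207% in the controls 4F, 4M and 7F. On this footing Zfp750_KO 3F was level with 1M and 2M, and 6F was the lowest of its group but still above every control. Col1a1 itself was 536011, 561715, 59036 and 243782 in the Zfp750_KO libraries 1M, 2M, 3F and 6F, and 430041 to 1070000 in control. The ratio thus carries the lower collagen of some Zfp750_KO libraries as well, most of all that of 3F. Pdgfra, another of the fibroblast markers, was less reduced in 3F than Col1a1 was, so the level place of 3F depends on the gene chosen. Measured against Krt5, which basal keratinocytes express, Tnfrsf11b was at 11.2%, 27.1%, 23.7% and 9.76% in the Zfp750_KO libraries 1M, 2M, 3F and 6F, against 0.749%, 9.35% and 6.21% in the controls 4F, 4M and 7F. Every Zfp750_KO library was again above every control, with 6F and control 4M nearly level. The sum of the markers of vessel lining and vessel wall cells was also highest where Tnfrsf11b was, but not every marker was. All 12 endothelial and mural markers were listed, none at 0, and they summed to 1556, 1683, 455 and 720 per M of the library total in the Zfp750_KO libraries 1M, 2M, 3F and 6F, against 748, 521 and 535 per M in the controls 4F, 4M and 7F. Most of the sum in Zfp750_KO 1M and 2M was Pdgfrb (821 and 897 per M) and Acta2 (294 and 282 per M), listed as vessel wall genes. The vessel lining genes Pecam1, Cdh5, Kdr, Vwf and Cldn5 were instead highest in Zfp750_KO 6F, and Tek in control 7F. Tagln, a protein of smooth muscle and other contractile cells, was at 2375, 2218, 321 and 409 normalized counts in the Zfp750_KO libraries 1M, 2M, 3F and 6F, against 799, 123 and 93.3 in the controls 4F, 4M and 7F. Zfp750_KO 1M and 2M had the highest sums and the highest Tagln, but the groups overlapped, control 4F lying above Zfp750_KO 3F and 6F in both. The part of these cells in the Tnfrsf11b difference was not tested.

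Tnfsf11, the ligand (ENSMUSG00000022015, minus strand of chromosome 14 from 78514885 to 78545484 as deposited), was scarce throughout. Its normalized counts were 45.7, 21.3, 62.0 and 58.5 in the Zfp750_KO libraries 1M, 2M, 3F and 6F, against 3.10, 2.63 and 10.1 in the controls 4F, 4M and 7F. Every Zfp750_KO library lay above every control, the lowest of them, 2M, at 2.10 times the highest control, 7F. Means were 46.9 ± 18.5 (SD, n = 4) in Zfp750_KO and 5.28 ± 4.20 (SD, n = 3) in control, a ratio of means of 8.88, and the log2 difference was 1.73 ± 0.35 (SE) on the log2(normalized count + 11.9) scale, which understates the change of so low a gene.

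The reads behind these values were few. Zfp750_KO 1M, 2M, 3F and 6F held 44, 22, 55 and 85 reads of Tnfsf11, 206 in all, and control 4F, 4M and 7F held 4, 2 and 9, 15 in all. The exact 95% Poisson intervals, which cover counting error only, were 13.8 to 33.3 reads for Zfp750_KO 2M, 1.09 to 10.2 reads for control 4F, 0.242 to 7.22 reads for control 4M and 4.12 to 17.1 reads for control 7F. No control reached 1 per M of its library total, so Tnfsf11 passed the filter on low values through the Zfp750_KO libraries alone.

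Unlike Tnfrsf11b, Tnfsf11 was not lowest in the leukocyte-rich Zfp750_KO libraries, where it was at 62.0 and 58.5 in 3F and 6F against 45.7 and 21.3 in 1M and 2M. T cell transcripts were also higher in 3F and 6F than in 1M and 2M. The 15 T cell and innate lymphoid markers were all listed; without Thy1, which fibroblasts also make, the other 14 summed to 50.1, 66.0, 552 and 355 per M of the library total in the Zfp750_KO libraries 1M, 2M, 3F and 6F, and to 7.72, 99.2 and 146 per M in the controls 4F, 4M and 7F. Cd3d was at 0 in control 4F. Their order did not give the order of Tnfsf11. Zfp750_KO 1M and 2M held less of these transcripts than control 4M and 7F, yet more Tnfsf11. Relative to Cd3e, a chain of the T cell receptor complex, Tnfsf11 was at 71.0%, 34.9%, 13.1% and 31.8% in the Zfp750_KO libraries 1M, 2M, 3F and 6F, against 66.7%, 2.74% and 9.47% in the controls 4F, 4M and 7F. The groups overlapped on this ratio, control 4F having 4 reads of Tnfsf11 and little Cd3e. Relative to Krt5 the groups overlapped as well. Tnfsf11 was at 0.376%, 0.446%, 8.53% and 3.54% of the Krt5 count in the Zfp750_KO libraries 1M, 2M, 3F and 6F. The controls 4F, 4M and 7F were at 0.0211%, 0.264% and 0.708%, so control 7F lay above Zfp750_KO 1M and 2M. The part of T cells or of keratinocytes in the Tnfsf11 difference was not tested.

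Tnfrsf11a, the signalling receptor (ENSMUSG00000026321, plus strand of chromosome 1 from 105708443 to 105775710 as deposited), did not separate the groups. Its normalized counts were 101, 86.0, 1028 and 687 in the Zfp750_KO libraries 1M, 2M, 3F and 6F, against 53.4, 421 and 616 in the controls 4F, 4M and 7F. The leukocyte-rich libraries were high and the leukocyte-poor ones low in both groups. Means were 475 ± 463 (SD, n = 4) in Zfp750_KO and 364 ± 286 (SD, n = 3) in control, and the log2 difference was 0.20 ± 1.11 (SE).

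The level of Tnfrsf11a went with that of Ptprc. Its normalized count was 7.66% and 6.70% of the Ptprc count in Zfp750_KO 3F and 6F, against 7.46% and 7.85% in the controls 4M and 7F. The 4 leukocyte-rich libraries thus lay within a narrow span with neither group above the other. In the leukocyte-poor libraries the percentage was higher, at 18.8% and 16.6% in Zfp750_KO 1M and 2M and 90.8% in control 4F. Relative to Csf1r, the receptor for macrophage colony-stimulating factor, Tnfrsf11a was at 17.6%, 30.3%, 10.1% and 8.23% in the Zfp750_KO libraries 1M, 2M, 3F and 6F, against 15.1%, 9.16% and 12.6% in the controls 4F, 4M and 7F. The 23 macrophage and monocyte markers summed to 369 to 12817 per M in Zfp750_KO and to 172 to 7327 per M in control, and the 12 Langerhans and dendritic cell markers to 494 to 17518 per M in Zfp750_KO and 161 to 13237 per M in control. Among the macrophage and monocyte markers, Msr1 was at 0 in at least 1 library.

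**Figure D1:**
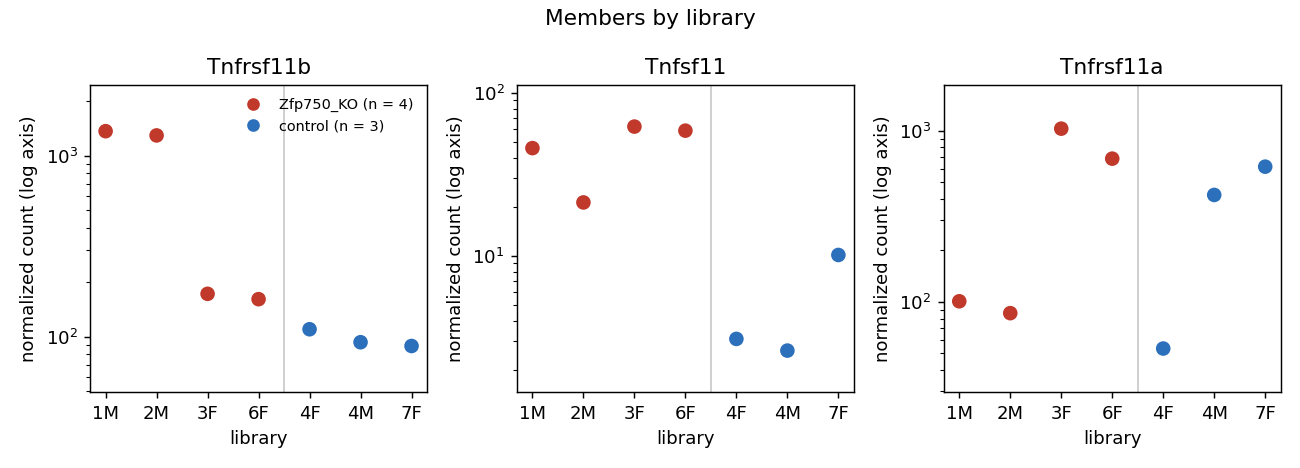
Normalized counts (log axis) of Tnfrsf11b, Tnfsf11 and Tnfrsf11a in each library, Zfp750_KO in red on the left and control in blue on the right; each point is 1 library. Tnfrsf11b is highest in Zfp750_KO 1M and 2M, at 1363 and 1291, Tnfsf11 is at 21.3 or more in Zfp750_KO and at 10.1 or less in control, and the groups overlap in Tnfrsf11a.

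**Figure D2:**
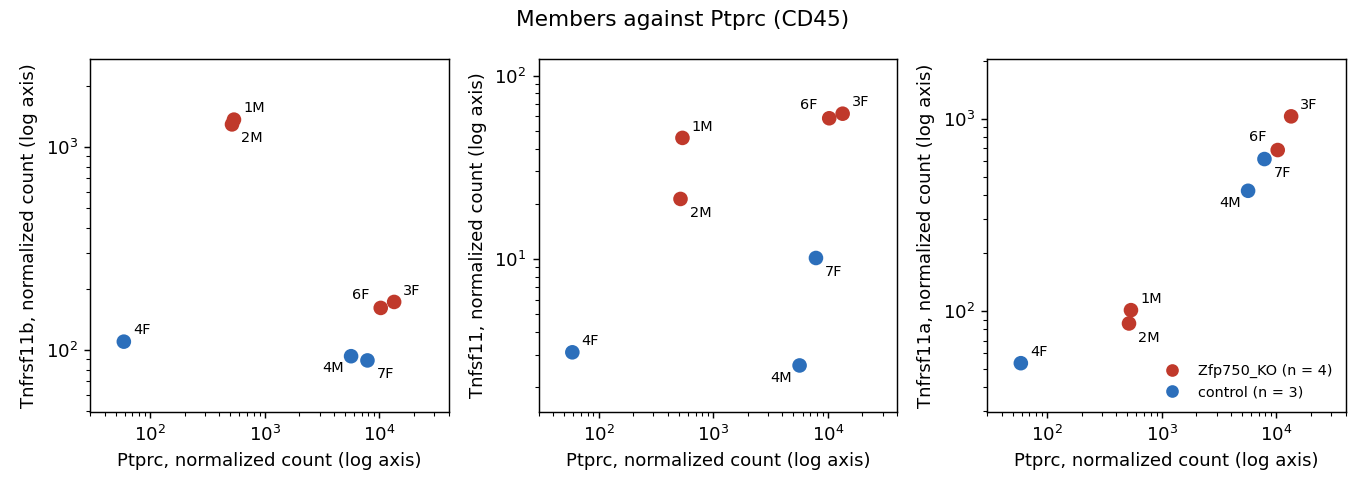
Normalized count of each member (vertical log axis) against that of Ptprc (horizontal log axis), 1 labelled point per library, Zfp750_KO in red and control in blue. Tnfrsf11a climbs with Ptprc in both groups, whereas Tnfrsf11b lies near 100 in the controls at every Ptprc level and is high in Zfp750_KO 1M and 2M.

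Per length the order of the members turned over between the libraries. Levels are given here per M of the library total and per kb of exon, with exon lengths of 2818, 2236 and 5985 bases for Tnfrsf11b, Tnfsf11 and Tnfrsf11a in GENCODE M21. In Zfp750_KO 1M they were 36.1 for Tnfrsf11b, 1.53 for Tnfsf11 and 1.26 for Tnfrsf11a, and in 2M they were 34.8, 0.721 and 1.09. In Zfp750_KO 3F they were 5.68, 2.58 and 16.0, and in 6F 5.48, 2.51 and 11.0. Control levels were 2.95, 0.105 and 0.676 in 4F, 2.77, 0.0984 and 5.90 in 4M, and 2.81, 0.404 and 9.18 in 7F. The decoy led in Zfp750_KO 1M and 2M and in control 4F, and RANK led in Zfp750_KO 3F and 6F and in the controls 4M and 7F. RANKL was the lowest of the members in every library except Zfp750_KO 1M, where it stood slightly above RANK, on 44 and 97 reads.

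The ratio of decoy to ligand is how osteoprotegerin and RANKL are usually weighed against each other, and here it is given as reads of Tnfrsf11b for each read of Tnfsf11. It was 29.8, 60.8, 2.78 and 2.75 in the Zfp750_KO libraries 1M, 2M, 3F and 6F, against 35.5, 35.5 and 8.78 in the controls 4F, 4M and 7F. The groups overlapped, and the difference of the log2 ratios on the log2(normalized count + 11.9) scale was 0.43, a value that changed sign with a smaller pseudocount and without Zfp750_KO 1M or 2M. Zfp750_KO 3F and 6F had the lowest ratios of all libraries. Their exact 95% binomial intervals, for counting error only, were 2.03 to 3.86 and 2.14 to 3.57. Those of control 4M and 7F, also rich in leukocyte RNA, were 9.47 to 299 and 4.40 to 19.9 and lay above them. Such intervals hold no spread between libraries, so no difference between the groups is read from them. In Zfp750_KO 1M and 2M the intervals were 22.1 to 41.2 and 40.0 to 97.3, within that of control 4F, which was 13.6 to 132. The interval of control 4F, on 4 reads of Tnfsf11, is too wide to tell whether its ratio was like theirs. Both genes were higher in 1M and 2M than in control 4F. Zfp750_KO 3F and 6F exceeded control 4M and 7F by 5.78 to 23.6 times in the ligand and by 1.73 to 1.94 times in the decoy.

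**Figure D3:**
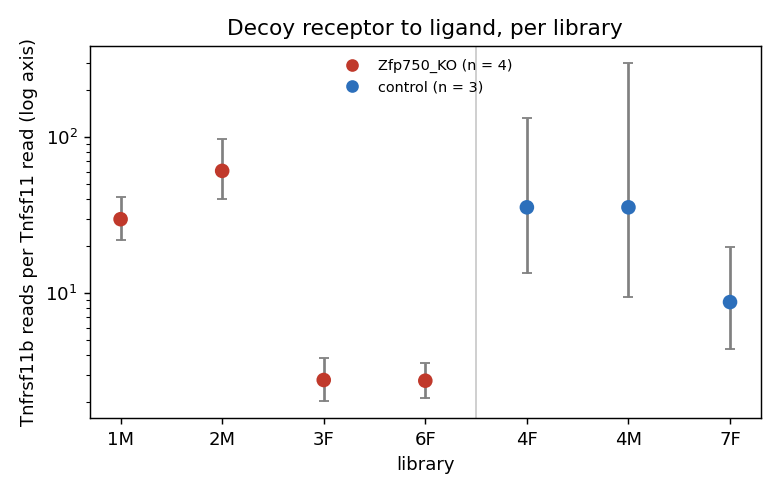
Tnfrsf11b reads per Tnfsf11 read (log axis) in each library, with exact 95% binomial intervals that cover counting error only; Zfp750_KO in red on the left, control in blue on the right. Zfp750_KO 3F and 6F, at 2.78 and 2.75, lie below the other libraries.

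Relative to the receptor, the ligand was higher in Zfp750_KO. Tnfsf11 stood at 45.4%, 24.7%, 6.03% and 8.53% of the normalized count of Tnfrsf11a in the Zfp750_KO libraries 1M, 2M, 3F and 6F, against 5.80%, 0.623% and 1.64% in the controls 4F, 4M and 7F. The lowest Zfp750_KO library, 3F, and the highest control, 4F, nearly met. The value of control 4F rests on 4 reads of Tnfsf11, with a 95% Poisson interval of 1.09 to 10.2 reads. Counting error alone could thus make these libraries overlap.

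Because the members followed separate courses over the libraries, the genes with the closest course to each were listed. Likeness was the root mean square difference of mean-centred log2(normalized count + 11.9) values over the 7 libraries, among 11301 genes that averaged 5 per M or more. This is a description of shared levels in 7 libraries and says nothing of shared control. The closest to Tnfrsf11b were Syt13, a synaptotagmin (0.21), the zinc finger factor Glis3 (0.27), Csgalnact1, an enzyme of chondroitin sulfate synthesis (0.29), Timp1, an inhibitor of matrix metalloproteinases (0.30), Gng11 (0.32), Pakap (0.35), P4ha3, a collagen prolyl hydroxylase subunit (0.36), and Rgs16 (0.36), where the median gene was at 1.54. Glis3 had normalized counts of 2771, 2672, 282 and 218 in the Zfp750_KO libraries 1M, 2M, 3F and 6F, against 163, 200 and 124 in the controls 4F, 4M and 7F. It was high in the same pair of libraries as Tnfrsf11b.

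The closest to Tnfsf11 were less close. They were Sox7 (0.38) and Ets1 (0.38), both transcription factors of endothelium among other cells, then Znf41-ps, Fkbp5, Tmem86a, Faah, Mxd1 and Mvd, at 0.39 to 0.43 against a median of 1.02. Ets1 was at 1782, 1829, 1926 and 1827 in the Zfp750_KO libraries 1M, 2M, 3F and 6F, against 697, 568 and 787 in the controls 4F, 4M and 7F. The Zfp750_KO libraries were level with one another there, and all were above the controls.

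The closest to Tnfrsf11a were Alpk1 (0.17), the paired immunoglobulin-like receptor Pira12 (0.17), Plcl2 (0.20), Fam78a (0.20), Ltb4r1, a leukotriene B4 receptor (0.20), Cd300ld3 (0.20), Xcr1, a chemokine receptor of cross-presenting dendritic cells (0.21), and Coro2a (0.21), against a median of 1.57. Plcl2 was at 108, 102, 1040 and 811 in the Zfp750_KO libraries 1M, 2M, 3F and 6F, against 41.0, 513 and 566 in the controls 4F, 4M and 7F. Like Tnfrsf11a it was high in the leukocyte-rich libraries of both groups.

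**Figure D4:**
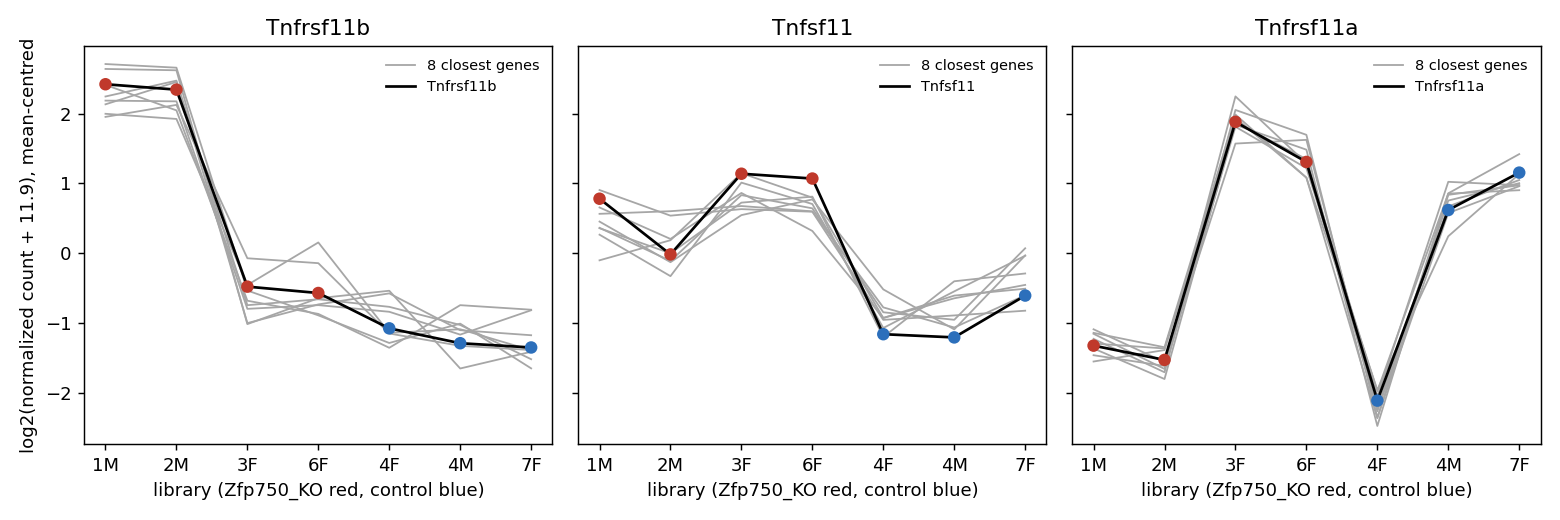
Mean-centred log2(normalized count + 11.9) of each member (black line, points coloured by group) and of its 8 closest genes (grey lines) over the 7 libraries, Zfp750_KO left and control right; lines only join values of the same gene. Tnfrsf11b and its closest genes are high in Zfp750_KO 1M and 2M, and Tnfrsf11a and its closest genes are low in Zfp750_KO 1M and 2M and control 4F.

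The rest of the pathway was taken from 6 lists of 127 genes, of which 112 could be tested. In limma with the group as the only term, no gene of these lists passed an adjusted p of 0.05, and the same was true of all 18141 genes tested (0% called in either direction). At an unadjusted limma p under 0.05 there were 17 of the 112, a larger share than the 5.83% of all genes tested (1058 of 18141). The lists were chosen with earlier results of these data known, so nothing is read from that. With array weights, which let libraries count unequally, the number past the threshold was 24 of the 112 (21.4%), close to the 20.9% of all genes in that fit. A second limma fit held the macrophage score, the mean log2 value of the 23 macrophage and monocyte markers, as a covariate. There 6 of the 112 genes were past the threshold upwards and 3 downwards, against 1.32% and 2.1% of all genes tested, or 3.42% in either direction. Of the 3, Calcr had met the filter on low values through the controls alone, so its place in the count is not read as a result. The count of 9, or 8.04% of the 112, was 19 (17.1% of those tested) without control 4F, where 9.07% of all genes passed, 4 (3.6%) without control 4M, where 0.77% passed, and 5 (4.63%) without control 7F, where 0.994% passed. In the macrophage score fit of all 7 libraries, 4 of the 12 endothelial and mural markers given above for Tnfrsf11b rose, the contractile genes Acta2, Tagln and Myh11 (1.52, 2.21 and 1.27) and the adhesion molecule Mcam (1.10), and the angiopoietin receptor Tek fell by 1.43 on the log2 scale. The calls of Acta2, Tagln and Myh11 held without any single library, whereas Mcam was lost without any one library other than control 4F and Tek without Zfp750_KO 2M, 3F or 6F or control 4M or 7F. Differences given from here on are log2 differences of the fit with the macrophage score, and adjusted p-values are those of limma over all genes.

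Among 7 binding partners of osteoprotegerin and further receptors of RANKL none passed, and the median difference was 0.45 against 0.019 over all genes tested. Sdc1, a heparan sulfate proteoglycan that binds osteoprotegerin, was at -0.14 ± 0.31 (SE). Lgr4, a further receptor for RANKL, was at -0.65 ± 0.20 with an adjusted p of 0.125. Vwf, the von Willebrand factor of endothelium, was at 0.92 ± 0.32 with an adjusted p of 0.178. Tnfsf10, or TRAIL, the other ligand of osteoprotegerin, chosen here after its values were seen, had normalized counts of 28.1, 35.7, 197 and 118 in the Zfp750_KO libraries 1M, 2M, 3F and 6F, against 19.4, 52.5 and 84.4 in the controls 4F, 4M and 7F. The groups overlapped.

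Of the 34 RANK signalling genes 1 rose and none fell, with a median of 0.09. Prdm1, a transcriptional repressor induced by RANKL in osteoclast precursors and also present in sebaceous and epidermal cells, rose by 2.68 ± 0.43 (SE, adjusted p = 0.0123). Its normalized counts were 3730, 3134, 1045 and 616 in the Zfp750_KO libraries 1M, 2M, 3F and 6F, against 260, 228 and 301 in the controls 4F, 4M and 7F. As with Tnfrsf11b, all Zfp750_KO libraries lay above the controls and 1M and 2M were highest. Without control 4M the call was lost. The adaptor Traf6, at 0.11 ± 0.16, and the transcription factor Nfatc1, at 0.093 ± 0.17, were chosen after their values were seen and did not pass.

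Of 18 osteoclast effector genes 15 were tested, with none past the threshold upwards, Calcr past it downwards and a median of 0.20. Calcr, the calcitonin receptor, had normalized counts of 4.16, 9.66, 1.13 and 2.75 in the Zfp750_KO libraries 1M, 2M, 3F and 6F, against 29.4, 26.3 and 39.4 in the controls 4F, 4M and 7F. Every Zfp750_KO library was below every control and under 1 per M of its total, so the gene met the filter through the controls alone and had to be lower in Zfp750_KO; the values are given as a description. Acp5 and Ctsk, the acid phosphatase and cathepsin of osteoclasts, chosen after their values were seen, were at -0.01 ± 0.34 and 0.11 ± 0.46.

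Of 9 markers of bone-forming cells 7 were listed, and these summed to 65.5 to 72.7 per M in Zfp750_KO and to 40.2 to 52.3 per M in control. Runx2 made up most of the sum, at 45.2 to 47.7 per M in Zfp750_KO and 25.4 to 29.5 per M in control. The sum is therefore not read as a level of bone-forming cells, and Sp7 and Phex overlapped between the groups. Of the 5 tested, 2 rose, Runx2 and Spp1, and none fell. Spp1, or osteopontin, a matrix protein also made by macrophages, rose by 1.82 ± 0.38 (SE, adjusted p = 0.036), at 227, 172, 139 and 77.1 normalized counts in the Zfp750_KO libraries 1M, 2M, 3F and 6F, against 16.3, 45.9 and 40.5 in the controls 4F, 4M and 7F. The groups did not overlap, and the call was lost without Zfp750_KO 1M, 2M or 3F or control 4M or 7F. Alpl, the alkaline phosphatase of mineralizing cells, was at 52.0, 32.8, 68.8 and 63.4 in the Zfp750_KO libraries 1M, 2M, 3F and 6F, against 139, 110 and 78.7 in the controls 4F, 4M and 7F, a difference of -0.88 ± 0.28 (SE) with an adjusted p of 0.14. In Alpl every Zfp750_KO library lay below every control, the opposite way to Spp1. Dmp1 and Sost, made by bone-embedded osteocytes, did not reach 1 per M in any library, and Sost was at 0 in Zfp750_KO 3F. Spp1, Alpl, Sp7, Phex, Dmp1 and Sost were chosen after their values were seen.

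Among 30 regulators of osteoprotegerin and RANKL 27 were tested, of which 3 rose and 1 fell, with a median of 0.052. Osm, or oncostatin M, a cytokine of myeloid and T cells, rose by 2.29 ± 0.18 (SE, adjusted p = 0.00207). Its normalized counts were 167, 97.6, 1218 and 1077 in the Zfp750_KO libraries 1M, 2M, 3F and 6F, against 1.55, 125 and 186 in the controls 4F, 4M and 7F. The groups overlapped, since the leukocyte-poor Zfp750_KO 1M and 2M were near the leukocyte-rich controls. Il1b, the cytokine interleukin-1 beta, rose by 0.95 ± 0.15 (adjusted p = 0.0121). It was at 298, 266, 8380 and 5049 in the Zfp750_KO libraries 1M, 2M, 3F and 6F, against 38.7, 1611 and 2379 in the controls 4F, 4M and 7F, and its call was lost without control 4M or 7F. With Ptprc in place of the macrophage score its difference was 0.56 and did not pass, and with a fibroblast score there it was -0.30.

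Runx2, a transcription factor of osteoblasts, rose by 0.74 ± 0.13 (SE, adjusted p = 0.0207), at 557 ± 69.0 (SD, n = 4) normalized counts in Zfp750_KO and 332 ± 29.6 (SD, n = 3) in control. The groups did not overlap, but the call was lost in 5 of the 7 fits without a single library, those without Zfp750_KO 1M, 2M or 3F or control 4M or 7F. Esr1, the estrogen receptor, through which estrogen raises osteoprotegerin in bone, had a difference of -2.52 ± 0.31 (SE, adjusted p = 0.00446). It was at 396, 184, 619 and 658 in the Zfp750_KO libraries 1M, 2M, 3F and 6F, against 2398, 2605 and 2147 in the controls 4F, 4M and 7F. All Zfp750_KO libraries lay far below the controls.

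In the rest of the tumour necrosis factor family, 12 of 17 other ligands and 22 of 26 other receptors were tested. Of the ligands 1 rose and 1 fell, with a median of 0.20, and of the receptors 1 rose and none fell, with a median of 0.39. Tnfrsf9, or 4-1BB, a costimulatory receptor of activated lymphocytes, rose by 2.10 ± 0.22 (SE, adjusted p = 0.00345). It was at 55.1, 48.3, 246 and 245 in the Zfp750_KO libraries 1M, 2M, 3F and 6F, against 0, 24.9 and 34.9 in the controls 4F, 4M and 7F, with no overlap. Tnfsf8, the CD30 ligand, rose by 1.31 ± 0.23 (adjusted p = 0.018), at 28.1, 29.0, 106 and 75.1 in the Zfp750_KO libraries 1M, 2M, 3F and 6F, against 3.10, 15.8 and 23.6 in the controls 4F, 4M and 7F. The groups did not overlap, and the call was lost without Zfp750_KO 2M, control 4M or control 7F. Lymphocyte markers moved the same way in this fit. Of the 15 T cell and innate lymphoid markers, 4 rose and none fell, with a median of 0.92 against 0.019 for all genes. The 4 were the costimulatory receptor Icos (2.27), the interleukin-2 receptor chain Il2rb (1.38), the interleukin-7 receptor Il7r (1.23) and the T cell receptor gene Trac (1.23), given as log2 differences. Icos passed without any single library, Il2rb was lost without control 4M, Il7r without Zfp750_KO 1M, 2M or 3F or control 4M or 7F, and Trac without any one library other than control 4F. The part of lymphocytes in the rises of Tnfrsf9, Tnfsf8 and Osm was not tested. Eda, or ectodysplasin, a ligand needed for hair follicle and gland development, fell by 1.32 on the log2 scale, with an SE of 0.16 and an adjusted p of 0.00401. Its normalized counts were 141, 142, 110 and 103 in the Zfp750_KO libraries 1M, 2M, 3F and 6F, against 379, 324 and 291 in the controls 4F, 4M and 7F.

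**Figure D5:**
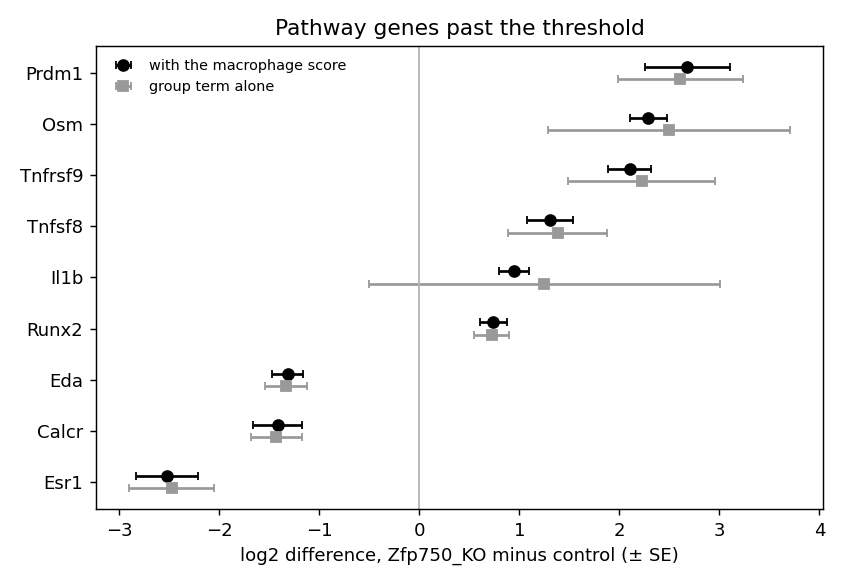
Log2 difference, Zfp750_KO minus control, with its SE (bars) for the 9 pathway genes past an adjusted p of 0.05 in the limma fit with the macrophage score (black circles), beside the fit with the group alone (grey squares), in which none passed. Prdm1, Osm, Tnfrsf9, Tnfsf8, Il1b and Runx2 are above 0 and Eda, Calcr and Esr1 below; Calcr met the filter on low values through the controls alone.

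Across all genes tested, 3.19% had every Zfp750_KO library above every control and 3.91% had every Zfp750_KO library below. Tnfrsf11b and Tnfsf11 were 2 such genes among the 3 members, and since the members were chosen on this contrast nothing is read from that count. Osm, Esr1, Eda and Tnfrsf9 passed the threshold without any single library, whereas Prdm1, Il1b, Runx2 and Tnfsf8 did not. With a keratinocyte score in place of the macrophage score, Eda alone of these genes passed. With a fibroblast score in its place, Osm and Tnfsf8 did not pass and Il1b changed sign. With Ptprc in its place, Il1b alone of them did not pass.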

How the data were processed

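Per the labels' protocols, sorted-cell RNA was purified on PureLink columns and NEBNext Ultra II reagents were used for the libraries. TopHat2 2.1.0 and Partek 9.0.20.0202 are named per the submitters' processing notes, with no role given. Neither the genome build nor the strand setting is given in the sources used here. Per the file headers, the values deposited by the authors are normalized counts per gene, a signal. Below 200 reads, 78.0% to 79.6% of a library's values were multiples of its value for 1 read (tolerance 0.02 reads), so whole reads were not recovered and no count test was run. The values of all 3 members were whole in every library, and their reads are quoted. No listed gene overlapped a member. Columns were assigned to groups by name, without replicate numbers.

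Values were analysed as log2(value + 11.9), the pseudocount being 1 per M of the median column total. Genes with at least 1 per M in at least 3 libraries were tested with limma 3.58.1 in R 4.3.3 (lmFit, eBayes with trend, Benjamini-Hochberg adjustment), with the group alone or with the macrophage score, leaving 5 and 4 residual degrees of freedom. Both fits were tested on simulated data in which the libraries did not differ in leukocyte RNA. That test therefore does not cover the leukocyte differences of these libraries. Intervals were made with scipy 1.17.1. Members, gene lists, the macrophage score and the rule for named genes were chosen with earlier results of these data known. The rule names the members, up to 6 genes past the threshold per list (or else the 3 with the highest mean) and the 8 genes closest to each member. Alternatives were other pseudocounts, scalings, filters, moderation, covariates and leaving out each library.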

Additional observations from a re-analysis of the deposited data

How the results depend on the processing

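No paired analysis was possible because the columns carry no replicate numbers. The log2 difference of Tnfrsf11b stayed between 1.67 and 2.96 and that of Tnfsf11 above 0 in every setting run. For Tnfsf11 it was 2.61 with a pseudocount of 0.25 per M and 0.70 with 5 per M, where the main value was 1.73; a larger pseudocount shrinks low values by construction. That of Tnfrsf11a ran from -0.82 with a fibroblast score to 0.83 without control 7F, and was 0.01 with the macrophage score, a covariate chosen for the members after the data were seen. The decoy to ligand difference ran from -0.36 with a pseudocount of 0.25 per M to 1.44 with a fibroblast score. Pathway genes past the threshold with the group alone numbered 0, but 24 with array weights (21.4%, with 20.9% of all genes), 11 with a fibroblast score (9.82%, with 4.7%), 8 with Ptprc (7.14%, with 2.28%) and 1 with a keratinocyte score (0.893%, with 0.38%) as a covariate. With the macrophage score the count of 9 ran from 4 to 19 over the fits without a single library, and was 15 with array weights (13.4%, with 6.17% of all genes), 20 with the letter M or F as a further term (17.9%, with 6.74%), and 1 with a keratinocyte score in its place. The reversed value was that of Il1b, at -0.30 with a fibroblast score in place of the macrophage score. The causes were not tested. The median log2 difference of all genes was 0.025 and lay between 0.0049 and 0.048 under the other scalings. Tnfsf11 in the controls rests on 15 reads.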
